A study of Caenorhabditis elegans with 8 samples.

Results

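The messenger RNAs of the proteins that build the 2 ribosomes of the nematode Caenorhabditis elegans were followed in whole adults that were fasting or fed. Members were the probe sets (groups of short probes for one transcript) whose platform annotation gave a single gene symbol beginning rpl-, rps-, mrpl- or mrps-. There were 176 of them among 22625 probe sets, for 134 genes: 65 for 59 mitochondrial genes and 111 for 75 cytosolic genes. Of these, 173 passed the filter on dim probe sets, 63 mitochondrial and 110 cytosolic, and 3 did not: mrpl-45 (176185_at, mean intensity 9.0), mrps-31 (187160_at, 12.2) and a second probe set of rpl-8 (178408_at, 10.6). A further 5 probe sets shared between a ribosomal protein gene and another gene were not used.

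Total RNA was measured on 8 Affymetrix arrays, 1 each for fasting and fed animals of 4 strains: drsh-1(ok369), ain-1(tm3681), daf-16(mu86) and the wild type N2, called WT here. The drsh-1 gene encodes Drosha, a nuclease that releases microRNA precursors in the nucleus. The ain-1 gene encodes a GW182-type partner of Argonaute proteins in microRNA silencing, and daf-16 encodes the worm FOXO factor, which insulin-like signalling holds in check. All groups shared the same handling: synchronised animals kept at 20 °C were put on plates with FUDR, a drug that blocks the division of germ cells and embryos, and at day 2 were moved to fresh FUDR plates without food (fasting) or with UV-killed OP50 bacteria (fed), and RNA was taken from day 4 adults. Each group was 1 array of whole animals, so that tissues were mixed and no group had a replicate, and fewer cells of a type and less RNA per cell cannot be told apart. Array medians lay between 35.3 and 37.8 intensity units. In a check of the labels, the drsh-1 probe set 188918_at read 17.1 fasting and 14 fed in the drsh-1 mutant, against 183 to 300.4 on the other 6 arrays, while a second one, 179831_at, read 357 and 397 in the mutant and 42.5 to 123 elsewhere. The daf-16 probe set 181992_s_at read 9.0 and 9.3 in the daf-16 mutant, against 62.4 to 89.9 elsewhere. None of the 3 ain-1 probe sets was low in the ain-1 mutant (174595_at read 202 and 99.6 there, against 204 and 132 in WT), and the sources used here do not say whether their probes lie in the deleted part.

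Animal cells make ribosomes of 2 kinds. Cytosolic ribosomes translate nuclear messages, and their proteins (RPL in the large subunit, RPS in the small) are made in near equal amounts from some of the most abundant messenger RNAs of the cell. Mitochondrial ribosomes translate the few messages of the mitochondrial genome, which code for respiratory chain subunits; their proteins (MRPL and MRPS) are also encoded in the nucleus, made in the cytosol and imported. Food supply acts on the cytosolic set through insulin-like and TOR signalling, largely at the level of translation, and in worms an imbalance between mitochondrial and nuclear encoded respiratory proteins is known to induce a mitochondrial stress response.

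The 2 sets stood at different parts of the intensity scale. Mean intensity over the 8 arrays had a median of 301.0 in mrpl and 253 in mrps probe sets, and of 7157 in rpl and 7496 in rps probe sets. Intensities of different probe sets are not levels on a common scale, so that this gives where on the scanner's range each set was read and not how much of each message was present. The brightest member, rpl-8 (190162_at, the large subunit protein of the peptidyl transferase region), averaged 11351, and the highest value of the whole table was 14151. Whether the cytosolic probe sets had room to respond in full so near the top of the range was not tested. The cytosolic set varied little: the SD of log2(intensity + 16) over the 8 arrays had a median of 0.090, against 0.23 over all 15783 probe sets tested. The mitochondrial median was 0.23. Probe sets with a mean intensity of 100 to 1000, where most mitochondrial members lie, had a median of 0.28. For the cytosolic members the spread of probe sets of like brightness was not computed. In range, the highest array of a member exceeded its lowest by a median of 1.58-fold in the mitochondrial set and 1.21-fold in the cytosolic set.

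**Figure D1:**
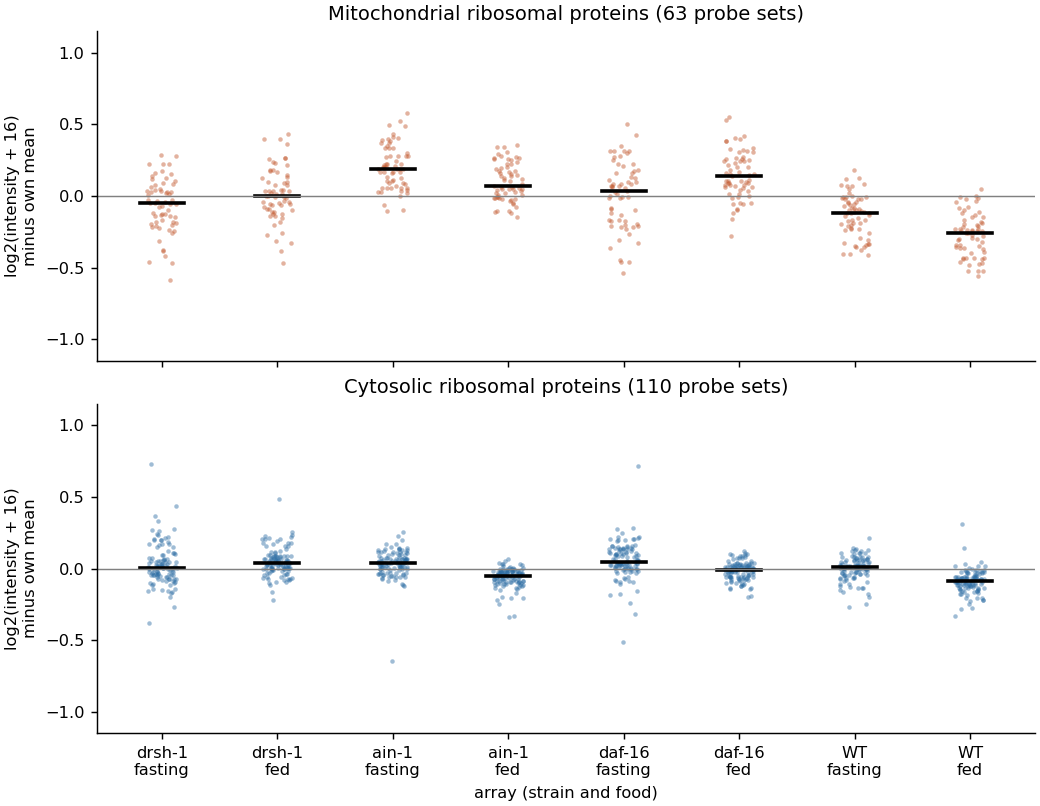
Each point is 1 probe set on 1 array, as log2(intensity + 16) minus that probe set's mean over the 8 arrays (vertical axis), for the 63 mitochondrial and 110 cytosolic probe sets; black bars are medians and columns are arrays. The mitochondrial medians run between -0.26 in fed WT and 0.19 in fasting ain-1, and the cytosolic medians between -0.088 in fed WT and 0.048 in fasting daf-16.

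Fasting was compared with feeding across the strains in a model that blocked on strain, so that the 4 strains stood in for replicates (limma, Benjamini-Hochberg over all 15783 probe sets). No member passed an adjusted p of 0.05, 0 of 63 mitochondrial and 0 of 110 cytosolic, where 3.26% of all probe sets tested did. At an unadjusted p under 0.05 there were 5 mitochondrial and 2 cytosolic members, all higher in fasting animals, where 30.1% of all probe sets were under this level. Calls depended on how arrays were weighted: limma's arrayWeights called 13 mitochondrial members, all higher, and 18 cytosolic members, 17 higher and 1 lower, with 40.3% of all probe sets called in that fit. When both drsh-1 arrays were left out, the counts were 3 mitochondrial (higher) and 6 cytosolic (5 higher, 1 lower), with 23.9% of all called. In each of these fits the members' share was under the background. The median log2 change was 0.000 in the mitochondrial set, with 32 of 63 members above 0, and 0.058 in the cytosolic set, with 100 of 110 above 0. Over all probe sets tested it was 0.006, with 51.3% above 0. The marker lists of most tissues had medians further from 0 than both sets. The neuron list did so only beside the mitochondrial set. The 12 body wall muscle genes had a median of -0.79 for fasting (7 lower past the threshold, 0 higher) and the 10 intestine genes -0.49 (4 lower, 0 higher). The germline, oocyte and sperm lists had medians between -0.39 and -0.28 with 0 past it (6 of 20, 10 of 17 and 2 of 11 at an unadjusted p under 0.05). The 11 neuron genes had a median of -0.03 with 0 past it (2 of 11 at that level). Single neuron genes ran both ways, between -0.385 (egl-21) and 0.514 (sbt-1). The part of these tissue markers in the members' changes was not tested.

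Within the mitochondrial set the changes ran both ways. The highest was that of mrpl-55 (185114_at), a large subunit protein found in animal mitochondria and not in bacteria. It read 250, 455, 409 and 316 in fasting drsh-1, ain-1, daf-16 and WT animals, against 259, 298, 266 and 212 in the fed animals of these strains. Its fasting values thus lay above the fed value of the same strain in ain-1, daf-16 and WT and just below it in drsh-1, and the fitted log2 change was 0.42 ± 0.14 (SE, limma, adjusted p = 0.12). mrps-11 (173883_s_at), of the uS11 family at the platform of the small subunit, read 1115, 1470, 1354 and 991 in fasting drsh-1, ain-1, daf-16 and WT, against 1085, 1012, 1046 and 774 fed. All 4 strains were higher fasting, with the smallest step in drsh-1 (log2 change 0.32 ± 0.11, adjusted p = 0.11). mrpl-41 (183493_at), another large subunit protein, gave 265, 350, 412 and 277 fasting in drsh-1, ain-1, daf-16 and WT, against 260, 264, 289 and 207 fed (0.32 ± 0.12, adjusted p = 0.14). These 3 were the mitochondrial members called without the drsh-1 arrays (limma, adjusted p = 0.018, 0.029 and 0.046 for mrpl-55, mrps-11 and mrpl-41), and arrayWeights called them too (0.0043, 0.0046 and 0.011).

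At the other end stood mrps-34, mrps-35 and mrps-9, proteins of the small mitochondrial subunit. mrps-34 (177196_s_at) read 194, 187, 130.1 and 141 in fasting drsh-1, ain-1, daf-16 and WT, against 215, 210.4, 246 and 165 fed. mrps-9 (176095_at), of the uS9 family whose tail reaches the tRNA sites, read 328, 320, 212 and 235 fasting, against 341, 361, 381 and 256 fed in the same order of strains. Both were lower fasting in every strain, and daf-16 had by far the widest step of the 4. The fitted changes were -0.34 ± 0.16 for mrps-34, -0.29 ± 0.13 for mrps-35 and -0.28 ± 0.15 for mrps-9 (limma, adjusted p between 0.18 and 0.26). In all, 11 mitochondrial probe sets (17.5%) were higher fasting in all 4 strains, among them those of mrpl-23, mrpl-49, mrps-5, mrps-11 and mrps-33, and 15 (23.8%) were lower in all 4, among them those of mrpl-12, mrpl-15, mrpl-16, mrps-9, mrps-16, mrps-34 and mrps-35. Over all probe sets tested, 19.9% were higher and 18.2% lower in all 4 strains.

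Among cytosolic members, 20 of 110 (18.2%) were higher fasting in all 4 strains and 0 were lower in all 4. The largest fitted changes were those of rpl-41.1 (194196_x_at, 0.29 ± 0.14), rpl-12 (173407_s_at, 0.25 ± 0.092) and rpl-29 (172911_x_at, 0.21 ± 0.086), with limma adjusted p of 0.21, 0.13 and 0.17. rpl-41.1 encodes one copy of the smallest protein of the large subunit. It read 1352, 2103, 2896 and 1754 in fasting drsh-1, ain-1, daf-16 and WT, against 1508, 1704, 1776 and 1399 fed. It was higher fasting in ain-1, WT and most of all daf-16, and lower in drsh-1. rpl-12, of the uL11 family at the base of the factor-binding stalk, read 5867, 5020, 6144 and 5023 fasting in drsh-1, ain-1, daf-16 and WT, against 5819, 3974, 4395 and 4475 fed, so that the step was near nil in drsh-1 and widest in daf-16. The lowest change was that of rpl-7A (176904_s_at), an eL8 protein of the large subunit, at -0.20 ± 0.12 (adjusted p = 0.31). It read 5378, 2064, 2264 and 3325 fasting, against 4544, 2574, 3103 and 4021 fed in drsh-1, ain-1, daf-16 and WT, higher fasting in drsh-1 and lower in the other 3. rpl-7A, rpl-12, rpl-29 and rpl-41.1 all passed under arrayWeights (adjusted p between 0.0093 and 0.023) and without the drsh-1 pair (between 0.020 and 0.036). The next lowest cytosolic changes, rpl-42 (-0.088 ± 0.066) and rpl-9 (-0.062 ± 0.083), had adjusted p of 0.41 and 0.65, and rpl-9 turned to 0.027 without the daf-16 arrays.

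Read strain by strain, with 1 fasting and 1 fed array each and no test, no member moved by 2-fold in any strain. Of all probe sets tested, 1.07% did in drsh-1, 6.22% in ain-1, 12.2% in daf-16 and 5.94% in WT. For drsh-1, ain-1, daf-16 and WT, in this order, the mitochondrial medians were -0.082, 0.085, -0.17 and 0.12, and the cytosolic medians -0.023, 0.091, 0.064 and 0.10. In WT and ain-1 both sets were thus slightly higher fasting (44 and 39 of 63 mitochondrial and 90 and 100 of 110 cytosolic members above 0). In drsh-1 both lay slightly below 0 (15 of 63 and 43 of 110 above 0), and in daf-16 the sets parted, with 22 of 63 mitochondrial and 79 of 110 cytosolic members above 0. Over all probe sets tested the medians were between -0.012 and 0.021, with 51.5%, 52.4%, 48.7% and 53.1% above 0 in drsh-1, ain-1, daf-16 and WT. Centring the arrays on their medians moved the median of all in daf-16 to -0.082 and the cytosolic median in daf-16 to -0.006. The 7037 probe sets with a mean intensity of 100 to 1000, where most mitochondrial members lie, had medians of the same signs as the mitochondrial set. These were -0.020, 0.049, -0.092 and 0.074 in drsh-1, ain-1, daf-16 and WT. Whether the strains differ in these medians could not be tested with 1 array per group.

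**Figure D2:**
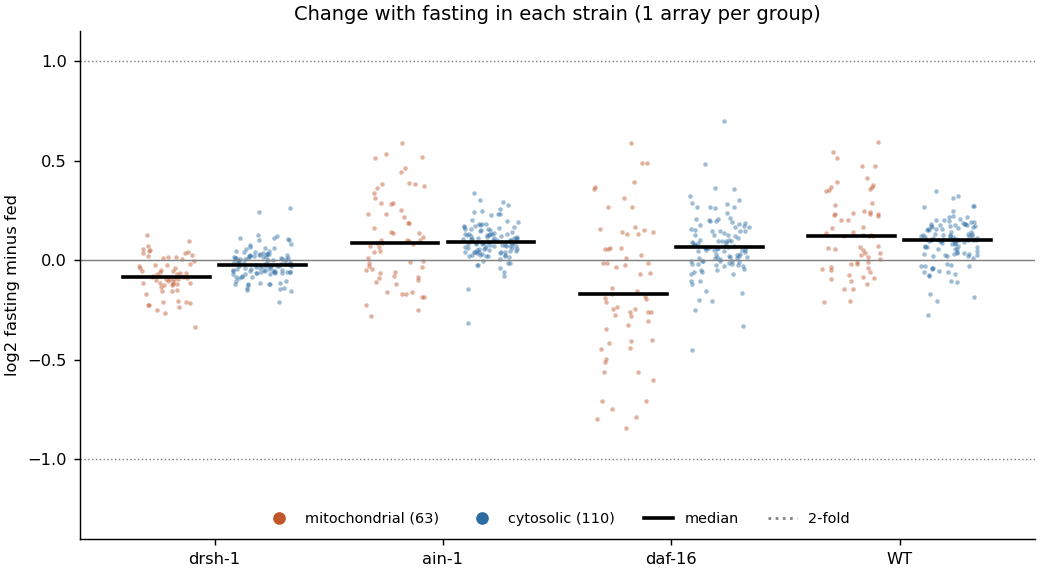
Log2 change between the fasting and the fed array of each strain (vertical axis) for each probe set, mitochondrial left and cytosolic right within a strain; black bars are medians and dotted lines mark 2-fold. No point reaches 2-fold, the mitochondrial points spread most in daf-16, and both medians lie below 0 in drsh-1.

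The daf-16 pair held the widest spread. Mitochondrial changes there ran between -0.85 (mrps-34) and 0.59 (mrpl-55), with a 10th percentile of -0.59 and a 90th of 0.30. After mrps-34 and mrps-9 (-0.80), the lowest was mrpl-19 (176239_s_at, -0.79), of the bacterial bL19 family, with 145 in fasting and 261 in fed daf-16 animals, against 187 fasting and 199 fed in WT. mrpl-10 (178531_at), the stalk protein that carries the L12 dimers, read 220 fasting and 369 fed in daf-16, against 274 and 250 in WT, and between 335 and 369 on the drsh-1 and ain-1 arrays. For both genes the fasting daf-16 array was the lowest of the 8. The germline markers (20 genes such as glh-1, pgl-1 and htp-3) had a median change of -0.63 in daf-16 against -0.17 in WT, and their summed intensity was 9837 in fasting and 14901 in fed daf-16, 11142 and 12211 in WT, and between 11338 and 14403 on the drsh-1 and ain-1 arrays. The oocyte and eggshell markers (17 genes) had a median of -0.74 in daf-16 and -0.18 in WT. One bacterial spike-in control, BioC-3, was also highest on the fasting daf-16 array (290.0, against 190 to 234 elsewhere). The part of these in the daf-16 changes was not tested. Without the daf-16 fasting array, no member passed for fasting either (limma), and 0.615% of all probe sets did.

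The fasting changes of drsh-1 spanned the narrowest range of the 4 strains in both sets. The mitochondrial members ran between -0.33 (mrps-28, 153 fasting and 197 fed) and 0.13 (mrps-5, 939 and 859), and the cytosolic ones between -0.21 (rpl-35A, 5373 and 6226) and 0.26 (a second rps-20 probe set, 171976_x_at, 1200.2 and 999). Its share of all probe sets past 2-fold was also the lowest of the 4 strains, as given above. mrps-17 (187749_at), of the uS17 family, differed most between strains among mitochondrial members: 206, 352, 253 and 252 fasting in drsh-1, ain-1, daf-16 and WT, against 240.3, 241, 251 and 162 fed. Its fed WT value stood apart below the other 7, and fasting lay above fed in ain-1 and WT, level in daf-16 and below in drsh-1.

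Each mutant was then set against WT over both foods, with food as a block. In drsh-1 animals 5 members passed, all higher than in WT: mrpl-4 and mrpl-22 among 63 mitochondrial members, and rpl-14, rps-2 and rps-20 among 110 cytosolic ones. Across all probe sets tested 11.8% passed in this comparison, so that the members' share was under the background. At an unadjusted p under 0.05 there were 10 mitochondrial and 12 cytosolic members, all higher, where 28.8% of all probe sets were under this level, and arrayWeights called 2 and 2, with 10.8% of all called. The 5 calls were lost when the ain-1 arrays were left out and when food was left out of the model (0 and 0 in both fits, where 5.97% and 3.59% of all passed).

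mrpl-22 (183614_at, chromosome III) belongs to the uL22 family, which lines the tunnel through which the new protein leaves. It read 232 fasting and 264 fed in drsh-1, against 144 fasting and 139 fed in WT, with 210, 212, 213 and 188 in fasting and fed ain-1 and daf-16. Both drsh-1 values lay above all others and both WT values below all others (log2 difference 0.74 ± 0.16, limma, adjusted p = 0.033, 1.67-fold). mrpl-4 (174279_s_at, chromosome V), of the uL4 family that also reaches into the tunnel, read 216 fasting and 234 fed in drsh-1, against 127 and 129 in WT, with 189, 191, 148 and 186 in fasting and fed ain-1 and daf-16. Its second probe set (189741_at) read 290 and 308 in drsh-1, against 187 and 171 in WT, and gave 0.69 ± 0.18 (adjusted p = 0.056) beside 0.74 ± 0.16 (adjusted p = 0.033) for the first. Next came mrps-12 (190280_at), the uS12 protein of the decoding centre, with 249 and 290.0 in drsh-1, against 158 and 151 in WT (0.74 ± 0.22, adjusted p = 0.074).

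On the cytosolic side, rps-2 (192310_s_at, chromosome IV), the uS5 protein at the entry of the messenger RNA, read 8241 fasting and 7622 fed in drsh-1, against 5926 and 5542 in WT, with 6225, 5894, 6316 and 5809 in fasting and fed ain-1 and daf-16. The drsh-1 arrays stood apart from the other 6 (0.47 ± 0.084, adjusted p = 0.018). rps-20 (176041_s_at, chromosome I), the uS10 protein of the small subunit head, read 3076 and 2867 in drsh-1, against 2022 and 2120 in WT (0.52 ± 0.11, adjusted p = 0.028), and its second probe set differed by 0.54 ± 0.14 (adjusted p = 0.05). rpl-14 (188181_at), an eL14 protein of the large subunit, read 9692 and 9324 in drsh-1, against 7047 and 7310 in WT (0.41 ± 0.085, adjusted p = 0.029). For both genes the ain-1 and daf-16 values lay between those of drsh-1 and WT. Other members ran the other way without passing: mrps-23 (192 and 211 in drsh-1, against 282 and 249 in WT), mrps-10 (286 and 313, against 412 and 371) and mrps-28 (153 and 197, against 231 and 225) had log2 differences between -0.37 and -0.36 (adjusted p between 0.20 and 0.25), and rpl-35A, rpl-28 and rpl-30 between -0.21 and -0.15 (0.26 to 0.36).

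**Figure D3:**
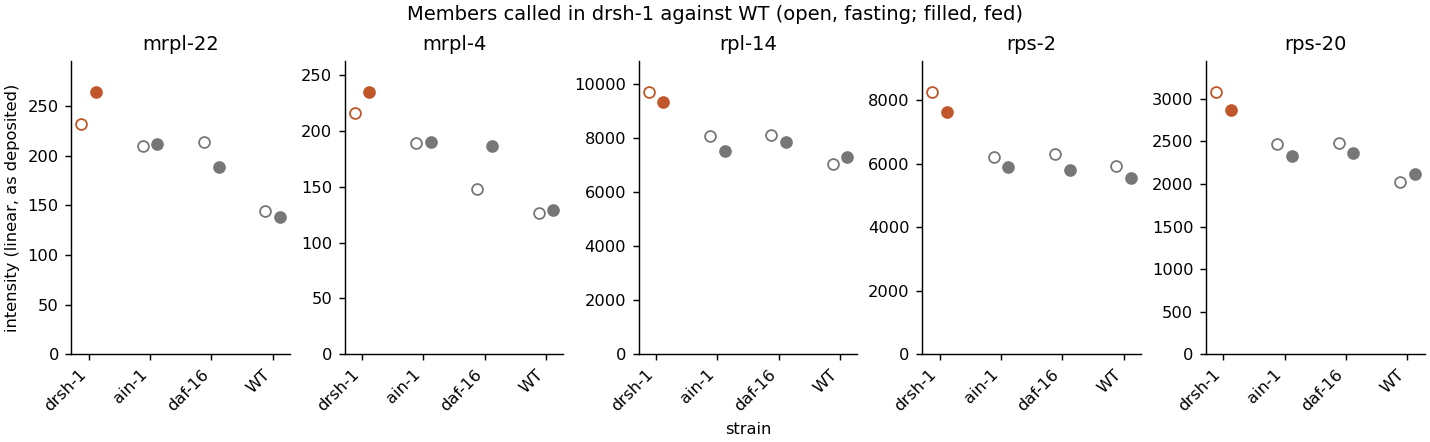
Intensity as deposited (vertical axis, linear and starting at 0) of the 5 members called in drsh-1 against WT, by strain; open points are fasting and filled points fed animals, 1 array each. In every panel both drsh-1 points lie above both WT points, and the ain-1 and daf-16 points lie between or close to WT.

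In ain-1 and daf-16 animals no member passed against WT. In ain-1, where 0.0507% of all probe sets tested passed, the counts at an unadjusted p under 0.05 were 27 mitochondrial members, all higher, and 1 cytosolic member, rpl-7A, lower. arrayWeights called 11 mitochondrial members (higher) and rpl-7A (lower), with 3.12% of all probe sets called. In daf-16, where 0% passed, the unadjusted counts were 17 mitochondrial members (higher) and 5 cytosolic ones (4 higher, 1 lower), and arrayWeights called 0 and 0. Over all probe sets tested 5.85% were under this level in ain-1 and 8.76% in daf-16, beside 42.86% and 26.98% of the mitochondrial members. The contrast of the mean of the 3 mutants with WT, added after the data had been seen, gave 0 calls where 0.272% of all probe sets passed, with 22 mitochondrial and 7 cytosolic members under the unadjusted level, all higher, beside 14.3% of all, and 3 and 0 calls with arrayWeights, where 3.74% of all were called.

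The mitochondrial set as a whole read higher in the mutants than in WT. For drsh-1, ain-1 and daf-16 the median log2 differences over both foods were 0.17, 0.41 and 0.29, against cytosolic medians of 0.061, 0.040 and 0.067 and medians over all probe sets tested of -0.002, 0.010 and 0.037. In ain-1 and daf-16, 61 of 63 mitochondrial members were above WT, and in drsh-1 51 of 63. Of all probe sets tested, 52.5%, 57.7% and 49.7% were above WT in ain-1, daf-16 and drsh-1. The shares were 58.7%, 62.4% and 55.7% among those with a mean intensity of 100 to 1000. The 3 mutants were set against the same WT arrays, so that their differences are not independent of each other. The array that stood apart was fed WT: its mitochondrial median lay 0.26 below the members' own means, and 32 of 63 mitochondrial and 49 of 110 cytosolic members had their lowest value of the 8 there. The share of all probe sets with their lowest value there was not computed. That array was also lowest over all probe sets tested (median -0.040, 9138 of 15783 below their own means). The same held for the 7037 with a mean intensity of 100 to 1000 (-0.10, 4569 below). The fasting WT array was next lowest for the mitochondrial set (-0.12), followed by drsh-1 fasting (-0.049), drsh-1 fed (0.002), daf-16 fasting (0.036), ain-1 fed (0.069), daf-16 fed (0.14) and ain-1 fasting (0.19). Without replicates, a property of the WT strain and one of these WT samples cannot be told apart.

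The medians lay above 0 under both foods. Whether the foods differed in this was not tested. Against WT fed, 52 of 63 mitochondrial members were higher in drsh-1 fed, 62 in ain-1 fed and 62 in daf-16 fed, with medians of 0.29, 0.39 and 0.43. Against WT fasting, the counts were 42, 60 and 45, with medians of 0.072, 0.36 and 0.16 in drsh-1, ain-1 and daf-16. Of all probe sets tested, 52.2%, 53.1% and 58.1% were higher fed and 51.4%, 52.2% and 52.8% fasting, in the same order of mutants. The cytosolic medians were 0.13, 0.042 and 0.082 for fed and 0.004, 0.043 and 0.044 for fasting drsh-1, ain-1 and daf-16 against WT. No member reached 2-fold in any of these 6 pairs of arrays. Among all probe sets tested, 7.6%, 1.09% and 3.29% did in fasting drsh-1, ain-1 and daf-16, and 7.97%, 0.995% and 1.19% in the fed mutants. In all 3 fed mutants together, 51 of 63 mitochondrial (81.0%) and 67 of 110 cytosolic members (60.9%) were above WT, as were 26.6% of all probe sets tested. In all 3 fasting mutants the counts were 31 of 63 (49.2%) and 29 of 110 (26.4%), beside 24% of all, and under both foods 28 (44.4%) and 20 (18.2%), beside 1753 of all 15783.

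**Figure D4:**
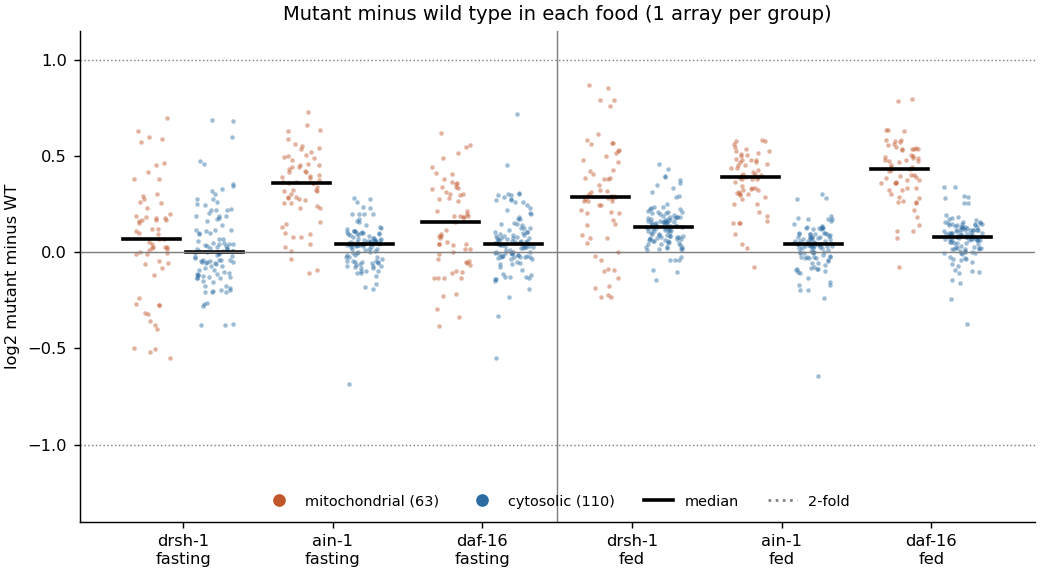
Log2 difference between each mutant and WT (vertical axis), fasting on the left and fed on the right of the vertical line, for each probe set, mitochondrial left and cytosolic right within a mutant; black bars are medians and dotted lines mark 2-fold. The mitochondrial median is above the cytosolic one in all 6 comparisons, by the widest margin in fed daf-16 and in ain-1 under both foods.

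Probe sets of like brightness had smaller medians. All 7037 probe sets tested with a mean intensity of 100 to 1000, which hold 58 of the 63 mitochondrial members, had medians of 0.12, 0.058 and 0.15 in fed drsh-1, ain-1 and daf-16 against WT, and of 0.032, 0.039 and -0.003 in fasting ones. In this band 60.6%, 60.5% and 69.1% were above WT in fed drsh-1, ain-1 and daf-16, and 52.6%, 55.9% and 49.7% in fasting ones. The band was chosen after the data had been seen. Under quantile normalization the mitochondrial medians over both foods were 0.12 in drsh-1, 0.35 in ain-1 and 0.22 in daf-16. Markers of tissues also differed from WT: the 12 body wall muscle genes had medians of -0.46, -0.39 and -0.79 and the 20 germline genes 0.17, 0.071 and 0.32 in fed drsh-1, ain-1 and daf-16. In fasting animals the muscle medians were 0.31, -0.19 and -0.75 and the germline medians 0.41, -0.020 and -0.19. The 11 sperm genes had medians of -0.17, 1.21 and -0.13 in the fed mutants and 0.22, 0.64 and -0.24 in the fasting ones, in the same order, and in ain-1 over both foods 7 of the 11 had an unadjusted p under 0.05 and 0 passed (limma). Their summed intensity was 1246 fasting and 3357 fed in ain-1, against 840 and 978 in WT. The 17 oocyte and eggshell genes had medians of -0.32, -0.08 and 0.14 fed and -0.24, -0.35 and -0.42 fasting. Those of the 10 intestine genes were -0.11, -0.10 and 0.13 fed and 0.27, 0.10 and 0.16 fasting. For the 11 neuron genes they were 0.14, -0.13 and -0.45 fed and 0.61, -0.03 and 0.01 fasting. The ratio of the 3-prime to the 5-prime control probe sets of Gapdh, a sign of RNA integrity, was 1.20 and 1.19 in fasting and fed daf-16, 1.05 and 1.01 in ain-1, 0.92 and 0.99 in drsh-1 and 0.90 and 0.86 in WT. The same ratio of Actin was 2.11 and 2.06 in daf-16, 2.03 and 1.84 in ain-1, 1.54 and 1.71 in drsh-1 and 1.74 and 1.64 in WT, so that fasting drsh-1 lay below both WT arrays by Actin and above both by Gapdh. The part of these in the mitochondrial differences was not tested.

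The members with the largest differences in ain-1 and daf-16 included these. mrpl-12 (193003_at), the stalk protein that recruits translation factors, read 264 fasting and 288 fed in ain-1 and 221 fasting and 271 fed in daf-16, against 175 and 187 in WT (ain-1 minus WT 0.57 ± 0.15, limma, adjusted p = 0.55). mrpl-11 (190989_at), at the base of that stalk, read 487 fasting and 433 fed in ain-1 and 441 fasting and 498 fed in daf-16, against 309 and 333 in WT (daf-16 minus WT 0.53 ± 0.15, adjusted p = 0.43). In both genes the 4 mutant values lay above both WT values. mrps-23 (187526_at) split the mutants: 334 fasting and 381 fed in ain-1 and 373 fasting and 444 fed in daf-16 stood above 282 and 249 in WT (daf-16 minus WT 0.59 ± 0.17, adjusted p = 0.42), with drsh-1 below WT as given before. mrps-21 (184357_at) read 90.1 and 65.9 in ain-1, against 52.2 and 43.2 in WT, and mrpl-23 (180798_at) 388 and 293, against 272 and 191 (ain-1 minus WT 0.55 ± 0.18 and 0.54 ± 0.17, adjusted p = 0.69 and 0.67). The few that did not share the direction included mrpl-40 (573 and 533 in ain-1, against 617 and 563 in WT), a dim probe set of mrpl-44 (174359_at, 45.1 and 48.8, against 49 and 47.8), and in daf-16 mrps-10 (312 and 450, against 412 and 371).

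The cytosolic members with the largest differences from WT in ain-1 and daf-16 were few. rpl-7A read 2064 fasting and 2574 fed in ain-1 and 2264 fasting and 3103 fed in daf-16, against 3325 and 4021 in WT, while the drsh-1 arrays were above WT (5378 and 4544). The fitted differences of drsh-1, ain-1 and daf-16 from WT were 0.43 ± 0.17, -0.66 ± 0.17 and -0.46 ± 0.17 (limma, adjusted p = 0.16, 0.53 and 0.54). It was the only cytosolic member with an unadjusted p under 0.05 in ain-1. rps-12 (185359_at), an eS12 protein of the small subunit, read 6452 and 5363 in daf-16 and 5555 and 5003 in ain-1, against 4707 and 4393 in WT (daf-16 minus WT 0.37 ± 0.10, adjusted p = 0.40). rpl-41.1 (0.53 ± 0.20) and rpl-41.2 (0.29 ± 0.10) were also among the 3 highest cytosolic members in daf-16, with rpl-4 (-0.21 ± 0.10) and rpl-8 (-0.12 ± 0.077) the next lowest after rpl-7A (adjusted p between 0.52 and 0.70).

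Both ribosomes descend from a common ancestor, so that many of their proteins belong to the same families. Of 25 universal families listed, 19 had a member of each compartment among the probe sets tested. This allows each mitochondrial protein to be set against its own cytosolic relative, although the paired probe sets still differ in brightness. In fed animals the difference from WT was larger for the mitochondrial relative in 12 of 19 pairs in drsh-1 and in 19 of 19 in ain-1 and 19 of 19 in daf-16, with median gaps of 0.11, 0.39 and 0.41. In fasting animals the counts were 14, 18 and 12 of 19, with gaps of 0.14, 0.34 and 0.067. These counts share the WT arrays. The widest gaps for the mean of the mutants over both foods were in uL22 (mrpl-22 over rpl-17, 0.57), uS12 (mrps-12 over rps-23, 0.54) and uL4 (mrpl-4 over rpl-4, 0.53). The narrowest or negative ones were in uS10 (mrps-10 under rps-20, -0.38), uL18 (mrpl-18 under rpl-5, -0.052) and uS5 (mrps-5 and rps-2, 0.030). rps-20 and rps-2 are 2 of the 3 cytosolic members called in drsh-1.

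**Figure D5:**
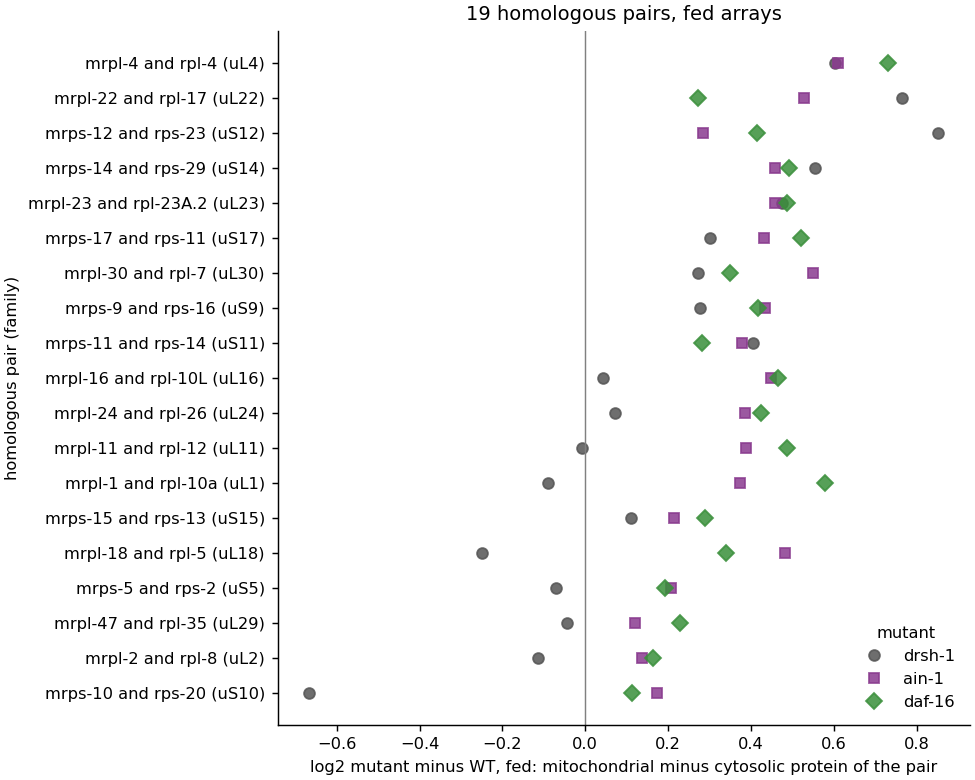
For each of 19 families with a mitochondrial and a cytosolic member tested, the log2 difference between fed mutant and fed WT of the mitochondrial protein minus that of its cytosolic relative (horizontal axis), 1 point per mutant. All ain-1 and daf-16 points lie above 0, and drsh-1 points lie on both sides.

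In the fasting change the median gaps of the pairs were near 0 in drsh-1, ain-1 and WT and further below 0 in daf-16. The mitochondrial minus cytosolic difference had medians of -0.053, -0.034, -0.24 and -0.048 in drsh-1, ain-1, daf-16 and WT, with 12, 11, 14 and 11 of 19 pairs below 0. In daf-16 the lowest were uL24 (mrpl-24 and rpl-26, -0.87) and uS9 (mrps-9 and rps-16, -0.86), and the highest uS11 (mrps-11 and rps-14, 0.27) and uL22 (mrpl-22 and rpl-17, 0.21). Over the 4 strains the widest were uS9 (-0.35), uL24 (-0.33) and uL16 (mrpl-16 and rpl-10L, -0.30) below 0, and uS11 (0.25), uS14 (mrps-14 and rps-29, 0.18) and uS17 (mrps-17 and rps-11, 0.15) above it.

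Most worm ribosomal proteins have a single gene, and the few duplicated cytosolic genes did not move alike. rpl-11.1 on chromosome V and rpl-11.2 on the X encode the uL5 protein that binds the 5S RNA. rpl-11.1 (193434_s_at) read 5274, 5908, 5118 and 5620 in fasting drsh-1, ain-1, daf-16 and WT, against 5390, 5480, 5732 and 4524 fed. rpl-11.2 (173330_s_at) read 5423, 5063, 5749 and 4757 fasting, against 5899, 4956, 5007 and 5026 fed in the same order. The copies ran opposite ways in 2 strains: the log2 fasting change in WT was 0.31 for rpl-11.1 and -0.079 for rpl-11.2 (-0.17 in its second probe set, 192343_s_at), and in daf-16 -0.16 for rpl-11.1 and 0.20 for rpl-11.2 (0.28 in the second).

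The uL23 genes, which encode a protein at the exit of the tunnel, gave a like picture. rpl-23A.2 on chromosome I (192887_at) changed by 0.27 in WT and -0.007 in daf-16, and rpl-23A.1 on the X (193097_s_at) by -0.19 in WT and 0.30 in daf-16. rpl-23A.1 read 5450, 4329, 5076 and 4281 in fasting drsh-1, ain-1, daf-16 and WT, against 5538, 4245, 4114 and 4868 fed. In both families, therefore, the X-linked copy was the lower one fasting than fed in WT and the higher one in daf-16, while in drsh-1 and ain-1 all changes but that of rpl-23A.2 in ain-1 (0.18) lay between -0.12 and 0.11. Genes on the X are known to be silenced in much of the germline, and germline markers in the same comparisons had medians of -0.17 in WT, -0.63 in daf-16, -0.32 in ain-1 and -0.020 in drsh-1. Their part in these values was not tested. rpl-11.2 and rpl-23A.1 were the only members on the X: 2 of 75 cytosolic genes (2.7%) and 0 of 59 mitochondrial genes, where 13.8% of 17072 genes named on the array are X-linked. Most of these probe sets carry the suffix s, given to probe sets that can match several transcripts, so that signals of near-identical copies may be mixed, as they may in 55 of the 111 cytosolic and 15 of the 65 mitochondrial probe sets with that suffix and in 20 cytosolic ones with the suffix x.

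rpl-41.1 and rpl-41.2 lie next to each other on chromosome I. rpl-41.2 (171920_x_at) read 7642, 7109, 8355 and 6755 in fasting drsh-1, ain-1, daf-16 and WT, against 7884, 7394, 7276 and 5986 fed. Its fasting change in daf-16 was 0.20 where that of rpl-41.1 was 0.70, and in ain-1 -0.057 against 0.30. Other neighbouring members in the annotation were rps-10 and rpl-24, rps-14 and rpl-36, mrps-2 and mrpl-4, and rpl-28 and mrpl-49. Some neighbours moved alike and others parted. The brightest probe set of the small subunit gene rps-10 changed with fasting by -0.04 in daf-16 and 0.13 in WT, and its neighbour rpl-24 by 0.07 and 0.12. The other rps-10 probe sets changed by 0.050 and 0.10 (192932_at) and by 0.10 and 0.14 (173367_s_at), closer to rpl-24. rps-14 changed by 0.10 and 0.07 where rpl-36 changed by 0.15 and 0.12. The mitochondrial neighbours mrps-2 and mrpl-4 were both above fed WT in fed drsh-1, ain-1 and daf-16 (0.32, 0.45 and 0.43 for mrps-2, and 0.79, 0.48 and 0.63 for mrpl-4). With fasting they parted in ain-1, daf-16 and WT. mrps-2 (189875_at) read 604 fasting and 440.1 fed in ain-1 and 446 and 317 in WT, a change of 0.44 and 0.47. The brighter mrpl-4 probe set changed by 0.009 and 0.12 there. In daf-16 mrps-2 changed by -0.02 and this mrpl-4 probe set by -0.42. In drsh-1 fasting animals mrps-2 stood 0.27 below WT and mrpl-4 0.59 above it. rpl-28 and mrpl-49, which are of different compartments, both changed upward with fasting in ain-1, daf-16 and WT (0.18, 0.13 and 0.27 for rpl-28, and 0.36, 0.31 and 0.37 for mrpl-49), but against fed WT the mutants differed by 0.29 to 0.44 in mrpl-49 and by -0.026 to 0.017 in rpl-28.

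Where a gene had several probe sets, these often differed by more than the set's own median change. In 31 cytosolic genes with more than 1 tested, the widest gap between their fasting changes had a median of 0.15, and in 5 mitochondrial genes 0.18. Probe sets of 1 gene had opposite signs in at least 1 strain in 19 of the 31 and 3 of the 5. Opposite signs with a gap over 0.5 occurred in 1 gene of each set. For rpl-12 the bright probe sets (173407_s_at and 175533_s_at) changed by 0.48 and 0.21 in daf-16 and a dim one (175191_at, 20.9 to 27.1 over the 8 arrays) by -0.16. For mrpl-44, which encodes a ribonuclease-like protein of the large subunit, 187436_s_at read 239 fasting and 166 fed in daf-16, whereas 173806_s_at read 630.4 and 732. Values for mrpl-44 are therefore uncertain.

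The other genes of ribosome production were taken from lists of the pathway. Of 39 genes of ribosome biogenesis tested, 5 (12.8%) were higher and 0 lower in drsh-1 against WT (limma), a share near the 11.8% of all probe sets called there: grwd-1 (0.87 ± 0.13, adjusted p = 0.0098), rbd-1 (0.79 ± 0.17, 0.029), nsun-5 (0.77 ± 0.18, 0.042), nol-6 (0.73 ± 0.18, 0.046) and pro-1 (0.72 ± 0.14, 0.025). grwd-1, a chaperone of the large subunit protein uL3, read 881 fasting and 790 fed in drsh-1, against 472 and 425 in WT. None passed for fasting, ain-1 or daf-16, with 10, 4 and 4 genes at an unadjusted p under 0.05 (30.1%, 5.85% and 8.76% of all probe sets). The medians of the list were 0.39, 0.20 and 0.23 for drsh-1, ain-1 and daf-16 over both foods and 0.16 for fasting, with nog-1, a nucleolar GTPase, highest (0.52 ± 0.14, adjusted p = 0.079) and rpoa-2, a subunit of RNA polymerase I, lowest (-0.28 ± 0.13, 0.21). Of 10 regulators of ribosome production (TOR complex and RNA polymerase III factors among them), none passed in any comparison (limma), 1 had an unadjusted p under 0.05 for fasting, 1 in drsh-1 and 0 in the others, and the medians lay between -0.040 and 0.11. ncl-1, a repressor of nucleolar size, had the lowest fasting change (-0.37 ± 0.13, adjusted p = 0.12) and rsks-1, the S6 kinase, the highest (0.19 ± 0.12, 0.31).

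For the mitochondrion, 2 of 21 genes of mitochondrial gene expression (9.52%) were higher in drsh-1 against WT, beside 11.8% of all probe sets: polg-1, the DNA polymerase (0.70 ± 0.14, adjusted p = 0.028), and mars-2, the methionyl-tRNA synthetase (0.66 ± 0.13, 0.024). Of 10 stress response genes 2 were higher: atfs-1, the transcription factor of the mitochondrial unfolded protein response, which read 295 fasting and 304 fed in drsh-1, against 82.7 and 118 in WT (1.46 ± 0.19, adjusted p = 0.0070), and hsp-6, the mitochondrial Hsp70, with 1477 and 1279, against 751 and 767 (0.84 ± 0.15, 0.019). None of 17 import genes passed in drsh-1 (limma), where 7 had an unadjusted p under 0.05 (28.8% of all probe sets did). No gene of these 3 lists passed for fasting, ain-1 or daf-16. The unadjusted counts for fasting, ain-1 and daf-16 were 4, 1 and 1 of 21 for mitochondrial gene expression. They were 2, 4 and 5 of 17 for import and 2, 0 and 1 of 10 for the stress response. Of all probe sets tested, 30.1%, 5.85% and 8.76% were under this level in these comparisons. The medians in fed drsh-1, ain-1 and daf-16 against fed WT were 0.30, 0.17 and 0.33 for mitochondrial gene expression, 0.51, 0.31 and 0.41 for import and 0.28, 0.10 and 0.14 for the stress response. dap-3, a mitochondrial small subunit protein outside the naming rule, read 284, 323, 232 and 212 in fasting drsh-1, ain-1, daf-16 and WT animals, against 300, 284, 262 and 197 in the fed ones (drsh-1 minus WT 0.48 ± 0.16, adjusted p = 0.11). Of cytosolic proteins outside the rule, rack-1 differed by 0.28 ± 0.086 in drsh-1 (adjusted p = 0.083) and ubq-2 by -0.049 ± 0.11 (0.79), and their fasting changes were -0.043 ± 0.061 and -0.001 ± 0.076 (adjusted p = 0.67 and 0.99).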

How the data were processed

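The authors deposited 1 table of linear array intensity for 8 arrays and 22625 probe sets. Per the labels' protocols, Trizol-extracted total RNA was amplified by 3-prime in vitro transcription with biotin label. How the intensities were summarised, background-corrected and normalized is not stated by those sources, and the scale could hide changes shared by most genes. Array numbers limit the precision, with 1 array per group. The p-values measure only the spread of these arrays around the model. That spread holds any fasting response that differs between strains, which counts as error, along with variation between arrays that may be technical.

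Values were taken as log2(intensity + 16), which understates changes of dim probe sets. The 77 control probe sets and the 30% of the others with the lowest mean (under 15.81) were left out, leaving 15783. limma 3.58.1 in R 4.3.3 fitted strain + food to all 8 arrays with a mean-variance trend (residual degrees of freedom 3), with Benjamini-Hochberg adjustment and calls under 0.05. On simulated data with independent noise, the fit recovered 42% of 1.5-fold changes for fasting and 16%, 12% and 20% for drsh-1, ain-1 and daf-16. At 2-fold it recovered 100%, 68%, 68% and 76%. Most simulated 1.5-fold changes were thus missed, in probe sets drawn at random from all those tested. Recovery among the members alone was not computed. The simulation held no fasting response that differs between strains, so it cannot check the fit where there is one. Single pairs of arrays were described at 2-fold, with no test. Symbols came from the platform annotation, updated by Entrez number to RefSeq (WBcel235); all 176 members matched. A gene's brightest probe set stood for it in the pairs, neighbours and lists. Named members were those that passed, the 3 largest changes each way per compartment and comparison, those differing most between strains, the widest homologous pairs, genes with discordant probe sets and duplicated genes; others were chosen after their values were seen. Members, lists and tests were chosen with earlier results of these data known. Alternatives were other filters, pseudocounts (1, 64), scalings, models, array weights and left-out arrays. No sequences were printed because none were in the sources used here.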

Additional observations from a re-analysis of the deposited data

Results flagged for a closer look

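The median log2 fasting change of the cytosolic members was -0.02 in drsh-1, against 0.10 in WT, and that of the mitochondrial members -0.08 in drsh-1 and -0.17 in daf-16, against 0.12 in WT. These stand out because the strains' medians lie on opposite sides of 0 under the same contrast. All 7037 probe sets tested with a mean intensity of 100 to 1000 had medians of the same signs. These were -0.02 in drsh-1, -0.09 in daf-16 and 0.07 in WT. That band holds 58 of the 63 mitochondrial members tested but only 2 of the 110 cytosolic ones. Over all probe sets tested the medians were 0.005 in drsh-1, -0.012 in daf-16 and 0.021 in WT. The difference between strains was not tested, since each group is 1 array.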

How the results depend on the processing

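Each group was 1 array, so the strains or foods served as the spread, and intensities near the top of the range or near background limit what could be read. Strain and food were blocks in the model. Fasting was thus compared with fed within strains, and each mutant with WT within foods. With 1 array per group there were no replicates to pair. Medians depended on the setting. Under the alternatives run the mitochondrial fasting median over the strains ran between -0.033 (without the WT pair) and 0.08 (arrayWeights) and the cytosolic one between 0.036 (quantile normalization) and 0.088 (arrayWeights). Centring on array medians turned the cytosolic fasting median of daf-16 to -0.006 and that of drsh-1 minus WT in fasting animals to -0.014. Quantile normalization gave 0.17 for the mitochondrial median of fed drsh-1 minus WT and 0.019 for the cytosolic one of fed daf-16 minus WT. Over both foods the mitochondrial medians ran between 0.122 and 0.182 (drsh-1), 0.343 and 0.418 (ain-1), and 0.221 and 0.392 (daf-16). Counts of calls also depended on it. For fasting, arrayWeights gave 13 mitochondrial and 18 cytosolic calls and leaving out the drsh-1 pair 3 and 6. In this model the residuals of a strain's 2 arrays mirror each other, so the weights follow how far a strain departs from the mean change. arrayWeights also gave 11 mitochondrial and 1 cytosolic calls in ain-1 and 3 mitochondrial calls for the mean of the mutants. In drsh-1 the mitochondrial count was 4 without the mean-variance trend, without the daf-16 pair or without the daf-16 fasting array, 1 with 1 probe set per gene, and 0, as was the cytosolic count, without the food block or without the ain-1 pair. The causes were not tested. Signs turned for rpl-9 in fasting (0.005 with arrayWeights, 0.027 without the daf-16 pair or the daf-16 fasting array), mrps-28 in ain-1 (-0.019, quantile normalization) and in the mean of the mutants (0.046 without drsh-1), mrps-10 in daf-16 (0.199 without the daf-16 fasting array) and in the mean of the mutants (0.087 without drsh-1, 0.021 without the daf-16 fasting array), mrps-26 in daf-16 (0.072 without the daf-16 fasting array) and mrpl-19 in daf-16 (-0.084, quantile normalization).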
